A study of Arabidopsis thaliana with 24 samples.

Results

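The genes described here are 10 Arabidopsis genes of mitosis and cytokinesis, taken by their locus identifiers from the 33020 loci of a deposited expression table. They are the B-type cyclins CYCB1;1 (AT4G37490), CYCB1;2 (AT5G06150, also named CYC1BAT), CYCB1;3 (AT3G11520) and CYCB2;2 (AT4G35620), the cyclin-dependent kinases CDKB1;1 (AT3G54180) and CDKB2;1 (AT1G76540), the cytokinesis syntaxin KNOLLE (AT1G08560, also named SYP111), the Aurora kinases AUR1 (AT4G32830) and AUR2 (AT2G25880), and CDC20.1 (AT4G33270). All 10 were found. RNA sequencing was done on whole seedlings grown in white light until 6 days of age, and then either given 1 hr of shade at a red to far-red ratio of 0.4 or left in white light. The 8 groups of 3 libraries each are pif7 in shade and in white light, asf1ab in shade and in white light, hira in shade and in white light, and wild type (WT, Col-0) in shade and in white light. The alleles of the mutants were not given in the sources used here, nor whether the 3 libraries of a group came from separate cultures, so a p-value measures the spread between these libraries, which may be technical. PIF7 is a bHLH transcription factor of the shade avoidance response, ASF1A and ASF1B are histone chaperones for H3 and H4, and HIRA belongs to a complex that deposits the histone variant H3.3.

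Plant cells enter mitosis when B-type cyclins accumulate and activate cyclin-dependent kinases, of which the B class is particular to plants and itself accumulates around mitosis. Aurora kinases act on the spindle and on chromatin, CDC20 activates the anaphase-promoting complex that destroys the cyclins, and KNOLLE drives the fusion of vesicles into the cell plate that divides the daughter cells. Transcription of many of these genes is confined to dividing cells and is set by MYB3R transcription factors, which bind the mitosis-specific activator (MSA) element. In a seedling most dividing cells lie in the shoot and root tips, in young leaves and in the stomatal lineage.

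The MSA element is the sequence feature most tied to this gene group, so the 300 bases before the annotated start of each gene were searched on both strands for its core, AACGG. The search used the TAIR10.1 genome and RefSeq annotation, whereas the authors' build was TAIR10. The core was present before 8 of the 10 genes, and in 23.4% of the windows of 27443 protein-coding genes. It occurred at least 2 times before 4 of the genes, the 4 B-type cyclins, and in 4.53% of all windows. CDKB1;1 and CDKB2;1 had no match in this window, part of which is annotated to a neighbouring gene in both. The 180 bases before the start are printed for the 4 cyclins, which hold several cores each, and for KNOLLE and AUR1. With CYCB2;2, these 2 genes later pass the threshold for a difference in shade response between pif7 and WT. They read as follows, 5′ to 3′ on the strand of the gene, with the core in capitals (AACGG, or CCGTT where it lies on the other strand).
CYCB1;1, chr4:17624309-17624488, minus strand: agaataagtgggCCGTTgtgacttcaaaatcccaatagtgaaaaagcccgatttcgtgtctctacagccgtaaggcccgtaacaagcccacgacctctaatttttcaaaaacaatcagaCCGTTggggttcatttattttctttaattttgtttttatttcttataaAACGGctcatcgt
CYCB1;2, chr5:1861704-1861883, minus strand: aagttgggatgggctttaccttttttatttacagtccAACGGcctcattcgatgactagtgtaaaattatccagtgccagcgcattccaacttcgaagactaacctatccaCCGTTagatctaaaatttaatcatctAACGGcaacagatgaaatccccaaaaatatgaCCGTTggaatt
CYCB1;3, chr3:3627274-3627453, minus strand: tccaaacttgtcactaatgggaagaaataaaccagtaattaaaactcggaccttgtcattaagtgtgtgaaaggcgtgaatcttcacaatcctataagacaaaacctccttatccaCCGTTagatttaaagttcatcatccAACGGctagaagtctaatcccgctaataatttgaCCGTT
CYCB2;2, chr4:16901416-16901595, plus strand: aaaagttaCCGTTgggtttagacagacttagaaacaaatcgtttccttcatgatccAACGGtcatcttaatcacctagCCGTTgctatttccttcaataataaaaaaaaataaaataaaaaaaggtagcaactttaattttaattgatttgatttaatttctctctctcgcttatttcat
KNOLLE, chr1:2711001-2711180, minus strand: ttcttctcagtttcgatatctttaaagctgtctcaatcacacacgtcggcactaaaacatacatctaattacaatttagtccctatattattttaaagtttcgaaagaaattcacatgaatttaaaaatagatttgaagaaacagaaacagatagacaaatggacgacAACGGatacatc
AUR1, chr4:15842263-15842442, plus strand: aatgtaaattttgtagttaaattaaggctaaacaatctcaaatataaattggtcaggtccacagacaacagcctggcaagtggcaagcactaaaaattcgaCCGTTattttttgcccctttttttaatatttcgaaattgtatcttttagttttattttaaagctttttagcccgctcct

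The last 3 cores of CYCB1;2, at 69, 43 and 11 bases before the start, alternate between the strands, as do those of CYCB1;3 at 64, 39 and 5 bases. The single core of KNOLLE lies 12 bases and that of AUR1 79 bases before the start. The only match of CDC20.1 lies 278 bases before its start, in a stretch that is also annotated to the neighbouring gene AT4G33280. Of other motifs searched in the same windows on both strands, the PBE-box CACATG, one of the sequences bound by PIF factors, occurred before CYCB2;2, KNOLLE and AUR1, 3 of 10 genes against 13.1% of all windows. The G-box CACGTG was before 0 of 10 genes and in 7.09% of all windows, and the E2F-type sequence TTTCCCGC before 0 of 10 and in 0.689%. These motifs do not overlap the MSA core in any of the windows printed above. A match describes letters in the genome and is not evidence of binding.

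**Figure D1:**
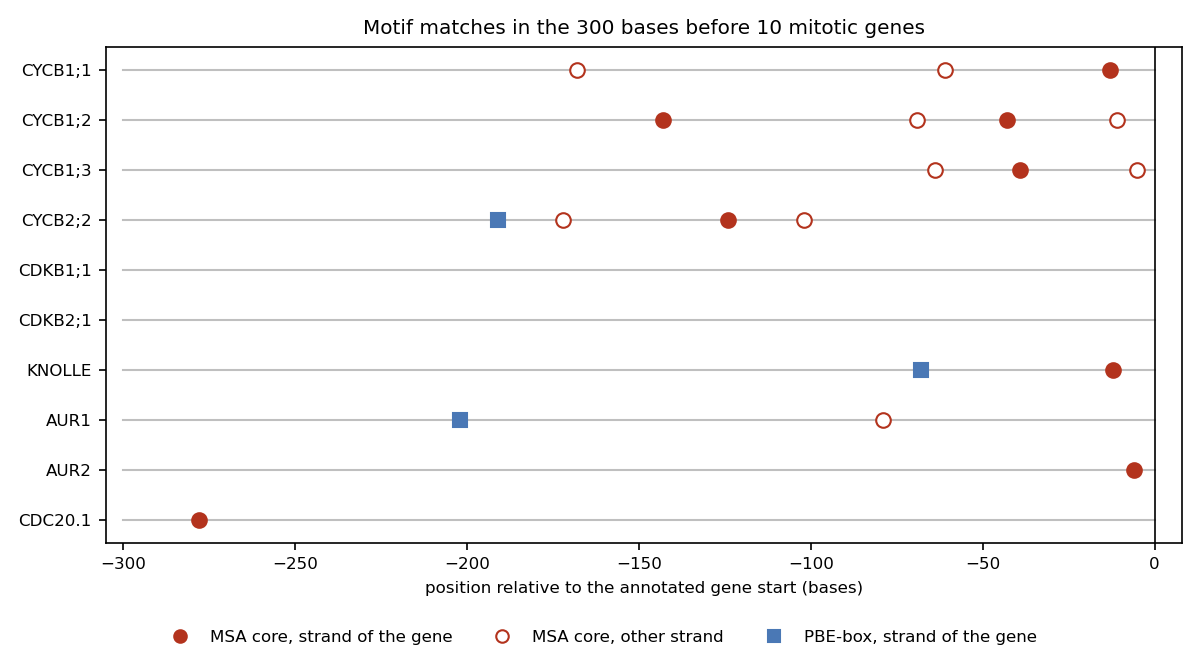
Positions of motif matches in the 300 bases before the annotated start of each of the 10 genes, in bases relative to the start (horizontal axis). Circles are MSA cores, filled on the strand of the gene and open on the other strand, and squares are PBE-boxes. The 4 cyclins at the top carry 3 or 4 cores each, and CDKB1;1 and CDKB2;1 carry none.

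The values are FPKM, fragments scaled to the length of the transcript and the size of the library, as deposited. From the smallest steps between low values, the depth of the libraries was read as 13360000 to 17660000 reads, so that a median of 67 reads stood behind CYCB1;3, the lowest of the 10 genes, and 598 behind CDC20.1, with as few as 24 for CYCB1;3 in the lowest library. Ribosomal RNA took 0.724 to 8.32% of the summed FPKM, and replicates 1 and 2 of hira in white light stood apart at 8.32 and 7.27%. The main results for the 10 genes that rest on them are given with and without them, and those of other lists with them only. The targeted genes fitted the labels for pif7, with PIF7 at 0.48 to 1.70 FPKM in 6 pif7 libraries against 11.2 to 28.8 FPKM in 6 WT libraries. ASF1B read 1.74 to 2.09 FPKM in asf1ab and 8.11 to 12.3 FPKM in WT, whereas ASF1A read 8.80 to 16.4 FPKM in asf1ab and 12 to 13.4 FPKM in WT. HIRA read 3.68 to 4.81 FPKM in hira and 4.59 to 5.20 FPKM in WT, so its level separates the genotypes only in part, and the labels do not say whether the allele lowers the transcript. In bulk RNA of whole seedlings, fewer dividing cells and less RNA per dividing cell cannot be told apart.

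Levels differed widely among the genes. KNOLLE was the highest at 21.4 FPKM over the 24 libraries, followed by CDC20.1 at 18.8, CDKB2;1 at 11.7, CYCB1;2 at 9.10, AUR2 at 7.13 and AUR1 at 6.09 FPKM. CDKB1;1 at 3.49, CYCB1;1 at 3.31, CYCB2;2 at 3.26 and CYCB1;3 at 2.64 FPKM were the lowest. The order of the 8 groups was alike at its ends for every gene: the mean of shaded pif7 was the lowest for 10 of 10 genes, which holds for 11.2% of the genes tested, and the mean of white-light hira the highest for 10 of 10, which holds for 5.30%. With replicate 3 of white-light hira alone, shaded pif7 was still the lowest for 10 of 10 genes, but white-light hira was the highest for 1 of 10, against 7.81% of the genes tested. Between those ends the groups lay close together. Of the 70 pairs of neighbouring groups in these orders, 10 had libraries that did not overlap, and 7 of those 10 were the step between shaded pif7 and the group next above it. The other 3 were white-light pif7 above shaded WT for CYCB1;1, shaded hira above white-light WT for CYCB2;2, and white-light pif7 above white-light WT for AUR1.

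**Figure D2:**
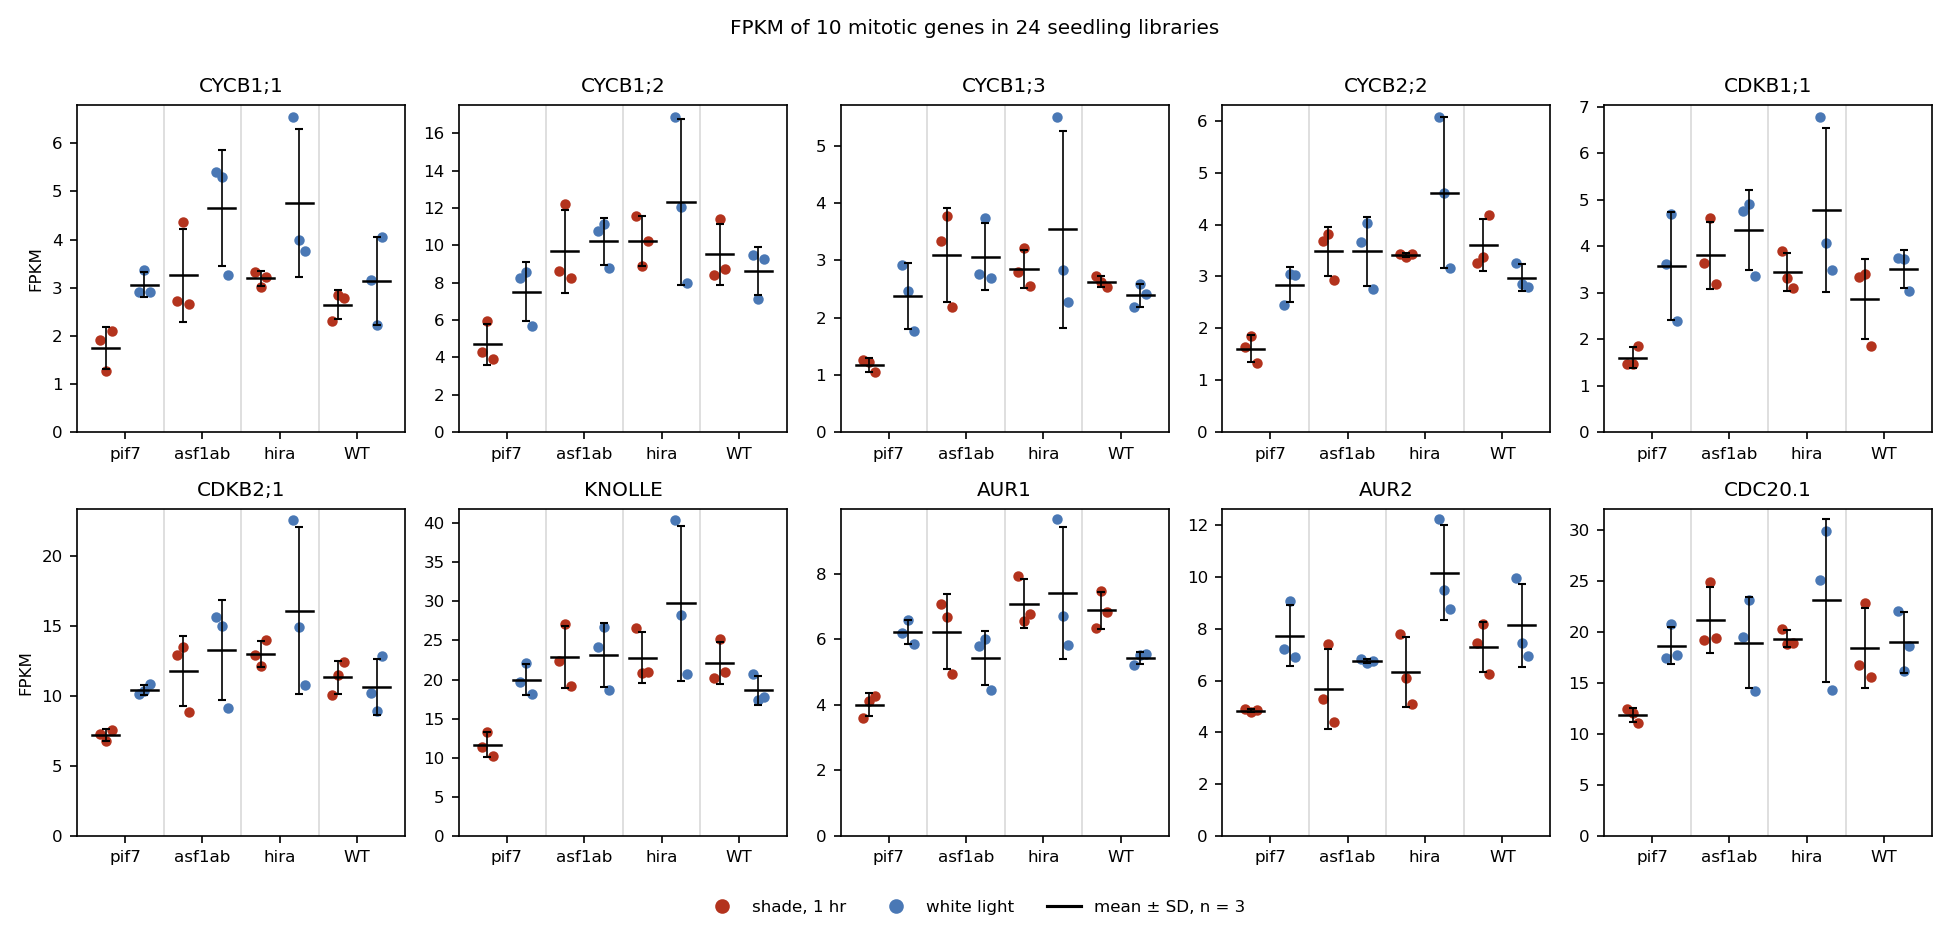
FPKM of the 10 genes in each of the 24 libraries (vertical axis, from 0), by genotype, with shade left of white light. Points are libraries and bars are the mean ± SD of 3 libraries. Shaded pif7 has the lowest mean in every panel, and white-light hira has the highest mean, set by its replicates 1 and 2.

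The first comparison asks how these genes stood in pif7 seedlings after 1 hr of shade. In pif7 the mitotic genes fell together: 9 of the 10 were lower in shade than in white light at an adjusted p below 0.05 (limma on log2(FPKM + 1), Benjamini-Hochberg adjustment over 19126 genes), where 13.6% of all genes tested were lower. The log2 changes lay between -0.79 for CDKB1;1 and -0.48 for CDKB2;1, and the summed FPKM of the 10 genes was 50.4 ± 2.32 in shaded pif7 against 82.4 ± 7.96 in white-light pif7 (SD, n = 3 each). Because 1 is added before the logarithm, these changes understate those of genes read at a few FPKM, so the mean FPKM in shade is also given as a ratio to that in white light. The libraries did not overlap for 9 of the 10 genes, and for 18% of all genes tested in the direction of lower in shade.

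KNOLLE, the syntaxin of the cell plate, read 11.4, 13.4 and 10.2 FPKM in the 3 shaded pif7 libraries, against 19.6, 22.1 and 18.2 FPKM in white-light pif7. All 3 shaded libraries lay below all 3 white-light ones, and below the other 21 libraries of the study, whose lowest value was 17.3 FPKM. Its mean in shade was 0.583 of that in white light, a log2 change of -0.73 ± 0.19 (standard error, limma adjusted p = 0.00404).

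Among the B-type cyclins, CYCB1;3 read 1.26, 1.22 and 1.04 FPKM in shaded pif7 against 2.92, 2.46 and 1.77 FPKM in white-light pif7, and CYCB2;2 read 1.63, 1.86 and 1.34 FPKM against 2.45, 3.04 and 3.03 FPKM. Neither gene had overlapping libraries. CYCB1;3 changed by -0.62 ± 0.20 on the log2(FPKM + 1) scale (limma adjusted p = 0.0159), and CYCB2;2 by -0.56 ± 0.15 (limma adjusted p = 0.00744). The ratio of their means, shade to white light, was 0.492 for CYCB1;3 and 0.567 for CYCB2;2. CYCB1;1, whose protein is much used as a marker of cells at the entry to mitosis, read 1.91, 1.26 and 2.09 FPKM in shaded pif7 against 2.91, 3.37 and 2.91 FPKM in white-light pif7, a ratio of means of 0.572 and a log2 change of -0.57 ± 0.20 (limma adjusted p = 0.0282). CYCB1;2, the most abundant cyclin of the 4, was the one gene whose libraries overlapped, because replicate 2 of shaded pif7 at 5.93 FPKM lay above replicate 3 of white-light pif7 at 5.68 FPKM. Its other shaded libraries read 4.27 and 3.89 FPKM against 8.27 and 8.58 FPKM in white light, the ratio of means was 0.625, and the log2 change was -0.58 ± 0.21 (limma adjusted p = 0.0358).

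Of the kinases, CDKB1;1 had the largest change of the group, with 1.47, 1.46 and 1.86 FPKM in shaded pif7 against 3.62, 4.70 and 2.38 FPKM in white-light pif7. Its mean in shade was 0.448 of that in white light, a log2 change of -0.79 ± 0.21 (limma adjusted p = 0.00634). CDKB2;1 read 7.29, 6.75 and 7.56 FPKM in shaded pif7 against 10.14, 10.4 and 10.8 FPKM in white-light pif7. These libraries did not overlap, but the change of -0.48 ± 0.21 missed the threshold (limma adjusted p = 0.0683). The fit shares 1 estimate of spread over the 8 groups, and the SD of CDKB2;1 was 0.412 and 0.356 FPKM in these 2 groups but 5.99 FPKM in white-light hira. After rescaling of the libraries it was past the threshold as well, and 10 of 10 genes were called. AUR1 read 3.60, 4.13 and 4.27 FPKM in shaded pif7 against 6.21, 6.59 and 5.86 FPKM in white-light pif7, a log2 change of -0.53 ± 0.14 (limma adjusted p = 0.00565). AUR2 was the most even within shaded pif7, at 4.90, 4.79 and 4.85 FPKM, against 7.21, 9.09 and 6.92 FPKM in white-light pif7, with a log2 change of -0.57 ± 0.16 (limma adjusted p = 0.00915). The ratio of means was 0.689 for CDKB2;1, 0.643 for AUR1 and 0.626 for AUR2.

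CDC20.1, which triggers the destruction of the cyclins, read 12.4, 12.1 and 11.1 FPKM in shaded pif7 against 17.5, 20.7 and 17.8 FPKM in white-light pif7, a ratio of means of 0.637 and a log2 change of -0.61 ± 0.21 (limma adjusted p = 0.0234). It shares sequence with its tandem neighbour CDC20.2: 66.8% of its exonic stretches of 50 bases were found nowhere else in the genome, so the split of reads between the 2 genes is uncertain. CDC20.2 moved the same way, at 5.48 ± 0.364 FPKM in shaded pif7 and 9.06 ± 1.3 FPKM in white-light pif7 (SD, n = 3 each), a log2 change of -0.63 ± 0.18 (limma adjusted p = 0.00939). CYCB1;2 shares part of its sequence with AT1G34460, and 88.7% of its stretches were unique. For the other 8 genes 99.5 to 100% were.

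Over all genes tested the median log2 change in shaded pif7 was 0.12, against -0.58 for the 10 genes. Rescaling the libraries by the median of ratios removes that shift. The median of the 10 genes was then -0.70, and the calls over all genes, 5715 higher and 2597 lower as deposited, became 3422 higher and 3682 lower. With replicate 2 of white-light pif7 left out, 5 of the 10 genes were called.

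The same treatment of WT gave 0 calls among the 10 genes, where 26.4% of all genes were called in either direction. The unadjusted p was under 0.05 for 0 of the 10 as well, a level at which no share over all genes was taken. The log2 changes in WT ran from -0.24 for CDKB1;1 to 0.29 for AUR1, with a median of 0.10 against 0.01 over all genes, and standard errors of 0.14 to 0.21. KNOLLE read 20.25, 25.1 and 20.9 FPKM in shaded WT against 20.8, 17.3 and 17.7 FPKM in white-light WT, which overlap. CYCB2;2 read 3.26, 3.37 and 4.19 FPKM in shaded WT against 3.27, 2.86 and 2.80 FPKM in white-light WT, again with overlap. AUR1 was the one gene whose shaded WT libraries, at 6.36, 7.49 and 6.83 FPKM, all lay above the white-light ones, at 5.23, 5.53 and 5.56 FPKM. That ordering holds for 22% of all genes tested, and the change in AUR1 of 0.29 ± 0.14 was not past the threshold (limma adjusted p = 0.144). The summed FPKM of the 10 genes was 87.3 ± 9.98 in shaded WT and 82.4 ± 8.07 in white-light WT (SD, n = 3 each).

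**Figure D3:**
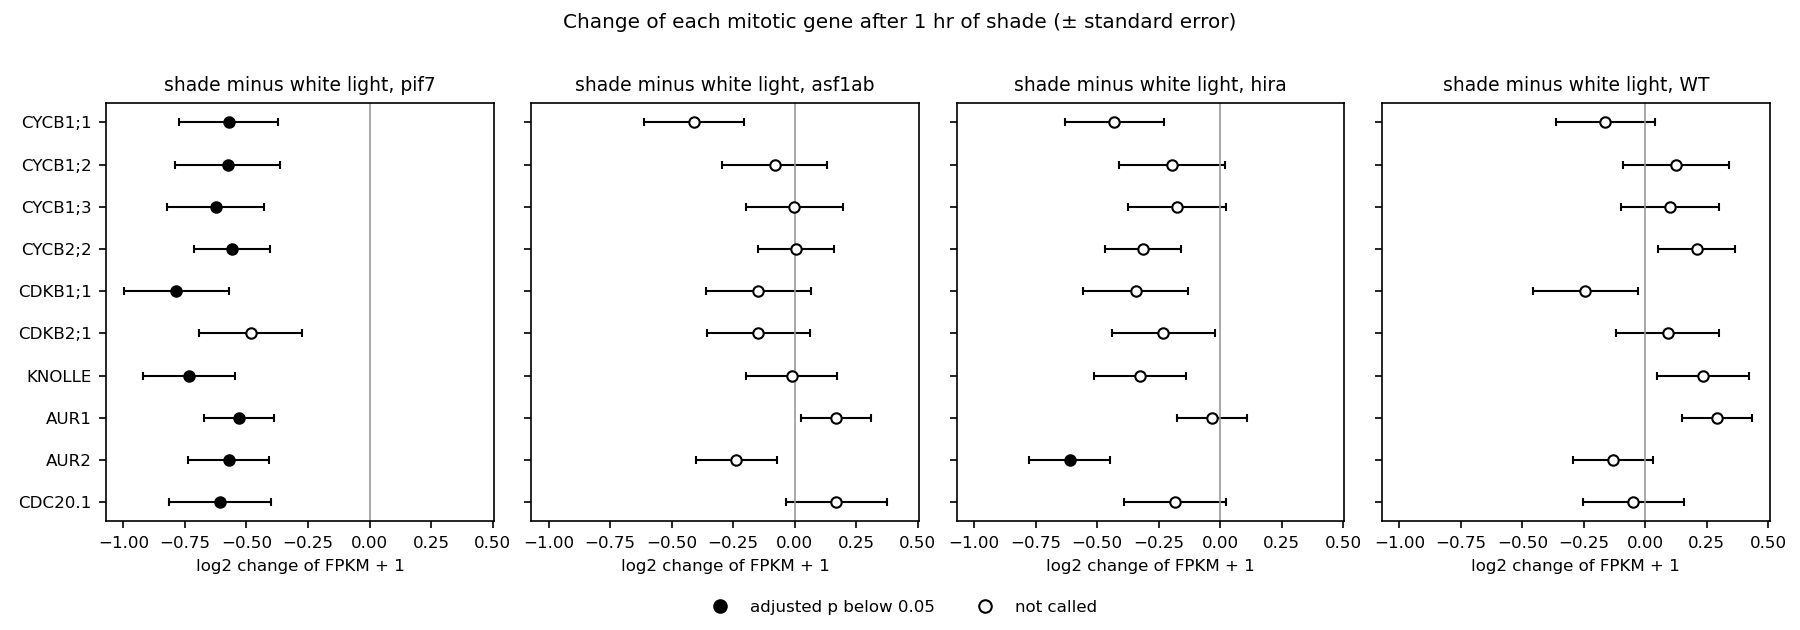
Log2 change of FPKM + 1 in shade minus white light (horizontal axis, with standard error) for each of the 10 genes, with 1 panel per genotype. Filled points have an adjusted p below 0.05. In pif7 all 10 points lie between -0.79 and -0.48 and 9 are filled, whereas 1 is filled in hira and none in asf1ab and WT.

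Whether pif7 and WT responded differently was tested directly as the difference between their shade responses, which uses libraries of pif7 and of WT in both lights. That difference was negative for 10 of 10 genes, as for 36.6% of all genes. It was past the threshold for 3, where 2.98% of all genes were called in that direction. The 3 were KNOLLE at -0.97 ± 0.26 (limma adjusted p = 0.0351), AUR1 at -0.82 ± 0.20 (limma adjusted p = 0.0214) and CYCB2;2 at -0.77 ± 0.22 (limma adjusted p = 0.0434). They are also the 3 genes with a PBE-box in the window searched, an overlap seen after both were known and not tested. The other 7 lay between -0.73 for CYCB1;3 and -0.41 for CYCB1;1, with limma adjusted p of 0.119 to 0.389. The median was -0.64, against 0.11 over all genes, and -0.73 after rescaling, under which 289 genes were called higher and 751 lower in place of 598 and 569. The 3 calls rest on single libraries: leaving out any 1 library other than replicate 3 of white-light pif7 lowered the count, to 1 or 2 for most and to 0 without replicate 2 of shaded WT, without replicate 1 of white-light WT, without replicate 1 of shaded pif7 or without replicate 2 of white-light pif7.

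Between pif7 and WT in white light 0 of the 10 genes were called by limma, where 0.397% of all genes were called in either direction. The unadjusted p was under 0.05 for 0 of the 10 as well. The log2 differences ran from -0.19 for CYCB1;2 to 0.16 for AUR1. AUR1 was again the one gene without overlap, at 5.86 to 6.59 FPKM in pif7 against 5.23 to 5.56 FPKM in WT, which 4.47% of all genes show in that direction. In shade 6 of 10 genes were lower in pif7 than in WT, where 6.31% of all genes were, and the libraries did not overlap for 9 of 10 genes, against 14.2% of all genes. These 2 comparisons and the shade responses share libraries, so they are not separate evidence.

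In shade CYCB2;2 read 0.446 of its WT level in pif7 (-0.82 ± 0.15, limma adjusted p = 0.00184), KNOLLE 0.527 (-0.87 ± 0.19, limma adjusted p = 0.00448) and AUR1 0.580 (-0.66 ± 0.14, limma adjusted p = 0.00473). CYCB1;2 at -0.89 ± 0.21, CYCB1;3 at -0.74 ± 0.20 and AUR2 at -0.50 ± 0.16 were also called, with limma adjusted p of 0.00949, 0.0164 and 0.0442. CDKB2;1, CDC20.1, CDKB1;1 and CYCB1;1 were not, with limma adjusted p of 0.0610, 0.0621, 0.0818 and 0.162. For CDKB1;1 the libraries touched, since replicate 3 of shaded pif7 and replicate 3 of shaded WT both read 1.86 FPKM. After rescaling 8 of 10 genes were called, and the calls over all genes were 965 higher and 1569 lower in place of 1953 and 1207.

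Set against the whole study, the 3 shaded pif7 libraries lay below all 21 others for 7 of the 10 genes, which 423 genes or 2.21% of those tested did. The exceptions were CYCB1;2, for which replicate 3 of white-light pif7 was lower than 1 shaded library, CDKB1;1, for which replicate 3 of shaded WT was as low, and AUR2, for which replicate 3 of shaded asf1ab read 4.39 FPKM. Markers of other seedling cells were measured beside them. The summed FPKM of 11 shoot meristem and primordium markers was 91.4 to 94.1 in shaded pif7, 78.4 to 95.3 in white-light pif7 and 90.0 to 106.5 in shaded WT, with CUC1, CUC2, CUC3, WUS and CLV3 under a mean of 1 FPKM in shaded pif7. The sum of 8 stomatal lineage markers was 39.2 to 40.5 in shaded pif7 against 43.0 to 48.3 in white-light pif7 and 34.6 to 42.2 in shaded WT. The sum of 9 root markers, of which PLT1, PLT2, WOX5, COBL9 and RHD6 were under 1 FPKM, was 37.8 to 40.3 in shaded pif7, 38.9 to 53.5 in white-light pif7 and 51.0 to 54.0 in shaded WT. The sum of 4 green tissue markers was 26410 to 28470 in shaded pif7 against 33200 to 42840 in white-light pif7 and 39670 to 43490 in shaded WT, so it was low in the same 3 libraries. Of the green tissue markers, 4 of 4 had a negative change in shaded pif7, as had 38.4% of all genes. Past the threshold 3 of 4 fell, where 13.6% of all genes fell: RBCS1A (-0.55 ± 0.11, limma adjusted p = 0.000693), LHCA3 (-0.44 ± 0.14, limma adjusted p = 0.0189) and LHCA1 (-0.57 ± 0.20, limma adjusted p = 0.0296). Their shade response was lower in pif7 than in WT past the threshold for 3 of 4, where 2.98% of all genes were called. The median difference was -0.86, against -0.64 for the 10 mitotic genes. In shade 3 of 4 were lower in pif7 than in WT, where 6.31% of all genes were. Their median there was -0.72, against -0.62 for the 10 mitotic genes. Of 7 stomatal lineage markers tested, 6 had a negative change, with a median of -0.37, and 3 fell, EPF2 (-0.57 ± 0.17, limma adjusted p = 0.0106), SPCH (-0.36 ± 0.14, limma adjusted p = 0.0373) and BASL (-0.45 ± 0.17, limma adjusted p = 0.0412), and none rose. After rescaling 5 of the 7 fell, where 19.3% of all genes fell. Of 4 root markers tested 1 fell, SCR, which patterns the root ground tissue (-0.22 ± 0.08, limma adjusted p = 0.0284), and none rose. With 13.6% of all genes lower, 1 of 4 is too few to set apart from that share. Of 7 shoot markers tested 3 rose and 2 fell, where 29.9% of all genes rose and 13.6% fell in shaded pif7. After rescaling 1 rose and 2 fell, where 17.9% of all genes rose and 19.3% fell. In the fit of the values as deposited STM, which maintains the shoot meristem, was higher in shade (0.52 ± 0.12, limma adjusted p = 0.00146). In that fit CUC3 and ANT, which act in organ boundaries and primordia, were lower (-0.80 ± 0.17, limma adjusted p = 0.000933, and -0.60 ± 0.19, limma adjusted p = 0.015). WUS was at 0 in all 3 libraries of shaded pif7, of white-light pif7 and of shaded WT, and no other marker was at 0 in all 3 libraries of one of these groups. Ribosomal RNA took 1.07 to 1.39% of the summed FPKM in shaded pif7 and 0.724 to 1.57% in white-light pif7. The part of these markers in the result was not tested.

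Shade in asf1ab gave 0 calls among the 10 genes, where 31.1% of all genes were called in either direction. The unadjusted p was under 0.05 for 0 of the 10 as well. The log2 changes ran from -0.41 for CYCB1;1 to 0.17 for CDC20.1. CYCB1;1 read 2.73, 4.36 and 2.67 FPKM in shaded asf1ab against 5.41, 5.30 and 3.26 FPKM in white-light asf1ab, which overlap through replicate 2 in shade and replicate 3 in white light. Those libraries set the spread of the whole group of genes: replicate 2 of shaded asf1ab was the highest of its group for 9 of 10 genes and replicate 3 the lowest for 9, and replicate 3 of white-light asf1ab was the lowest for 9. The summed FPKM was 91.1 ± 16.3 in shaded asf1ab and 93.3 ± 17.1 in white-light asf1ab (SD, n = 3 each), and 1 gene was called without replicate 2 of shaded asf1ab or without replicate 3 of white-light asf1ab. Leaving out the same libraries also gave 1 call against WT, in shade and in white light. Over all genes, 3601 were called higher and 2343 lower as deposited, and 2974 and 2931 after rescaling. The difference of this response from that of WT was called for 0 of 10 genes, where 0.46% of all genes were called. Its unadjusted p was under 0.05 for 0 of the 10 as well.

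Against WT, asf1ab had 0 of 10 genes called in white light, where 22.1% of all genes were called, and 0 of 10 in shade, where 25% were. At an unadjusted p under 0.05 there was 1 in white light, CYCB1;1, at 4.66 ± 1.21 FPKM in asf1ab and 3.14 ± 0.915 FPKM in WT (SD, n = 3 each), and 0 in shade. In white light 2 genes did not overlap: CYCB1;3, at 2.76, 3.74 and 2.70 FPKM in asf1ab against 2.18, 2.58 and 2.41 FPKM in WT, and AUR2, at 6.85, 6.67 and 6.75 FPKM in asf1ab against 9.98, 7.47 and 6.97 FPKM in WT. The first was higher and the second lower in asf1ab, an ordering found in 10.8 and 24.2% of all genes, and neither was called, with limma adjusted p of 0.388 and 0.362. Over all genes in white light, 1197 were called higher and 3028 lower as deposited, and 1848 and 2309 after rescaling.

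In hira, 1 of the 10 genes fell in shade past the threshold, where 9.55% of all genes were lower, and 0 rose, where 26% of all genes were higher. That gene was AUR2, with 7.80, 6.11 and 5.10 FPKM in shaded hira against 12.2, 9.51 and 8.79 FPKM in white-light hira, a log2 change of -0.61 ± 0.16 (limma adjusted p = 0.00693). All 3 shaded libraries lay below all 3 in white light. The other 9 changes were negative too, from -0.43 for CYCB1;1 to -0.03 for AUR1, as were those of 34.3% of all genes. The median over the 10 genes was -0.27 against 0.14 over all genes, and -0.42 after rescaling. CYCB1;1 was the other gene without overlap, at 3.02 to 3.33 FPKM in shaded hira against 3.77 to 6.54 FPKM in white light, an ordering found in 12.7% of all genes. Over all genes, 4980 were called higher and 1827 lower as deposited, and 2701 and 2845 after rescaling, which called 3 of the 10 genes. The difference of this response from that of WT was called for 0 of 10 genes, where 1.29% of all genes were called. The unadjusted p of that difference was under 0.05 for 2 genes, a level at which no share over all genes was taken. Rescaling turned the 116 higher and 131 lower calls of that difference over all genes into 55 and 208.

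The level of white-light hira itself was uneven. Against WT in white light all 10 genes had a positive difference, where 70.1% of all genes had a negative one. The median of the 10 was 0.39 (0.51 after rescaling) against -0.12 over all genes, and 1 gene was called, where 2.61% of all genes were higher. That gene was KNOLLE, with 40.4, 28.2 and 20.7 FPKM in white-light hira against 20.8, 17.3 and 17.7 FPKM in white-light WT, a log2 difference of 0.60 ± 0.19 (limma adjusted p = 0.0427). Replicate 3 of hira lay within the range of WT. Replicate 1 was the highest of its group for 9 of 10 genes, with CDC20.1 the exception, and replicate 3 the lowest for 10 of 10. As a ratio to the mean of white-light WT, the 10 genes read 1.32 to 2.3 in replicate 1, 1.16 to 1.58 in replicate 2 and 0.753 to 1.2 in replicate 3. Ribosomal RNA ran in the same order, at 8.32, 7.27 and 3.22% of the summed FPKM, and plastid transcripts were 2.5, 2.99 and 1.42%, against 1.60 to 2.78% and 0.851 to 0.905% in white-light WT. The sum of 4 green tissue markers was 47820, 50210 and 34970 in white-light hira against 31640 to 35770 in white-light WT.

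Without replicates 1 and 2 of white-light hira, 0 genes were called against WT, the differences were positive for 6 and negative for 4 genes, and their median was 0.05. The shade response of hira then had a median of 0.18, positive for 7 genes, with AUR2 still negative at -0.43. The difference of that response from WT had a median of 0.05, positive for 5 genes and negative for 5. With all libraries that median was -0.32, and the difference was negative for 10 genes, as for 32.7% of all genes. In these fits white-light hira is 1 library, assumed to vary like the other groups, so a lost call says little. Without replicate 3 alone, 6 genes were called against WT, 4 in the shade response of hira and 2 in the difference of that response from WT. The shares of all genes called in that refit are not given here, so the 3 counts have no background to be read against. Without replicate 1 or 2 of white-light hira alone, or without any 1 of the 3 white-light WT libraries, 0 genes were called against WT. Their part in the result was not tested beyond this. The one gene without overlap between hira and WT in white light was AUR1, at 9.69, 6.71 and 5.83 FPKM in hira against 5.23, 5.53 and 5.56 FPKM in WT, an ordering found in 5.53% of all genes. Over all genes in white light, 500 were called higher and 1728 lower in hira as deposited, and 755 and 665 after rescaling. In shade 0 of 10 genes were called between hira and WT, where 11.5% of all genes were, and 0 of 10 had an unadjusted p under 0.05. The summed FPKM of the 10 genes in shade was 91.7 ± 7.68 in hira and 87.3 ± 9.98 in WT (SD, n = 3 each).

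**Figure D4:**
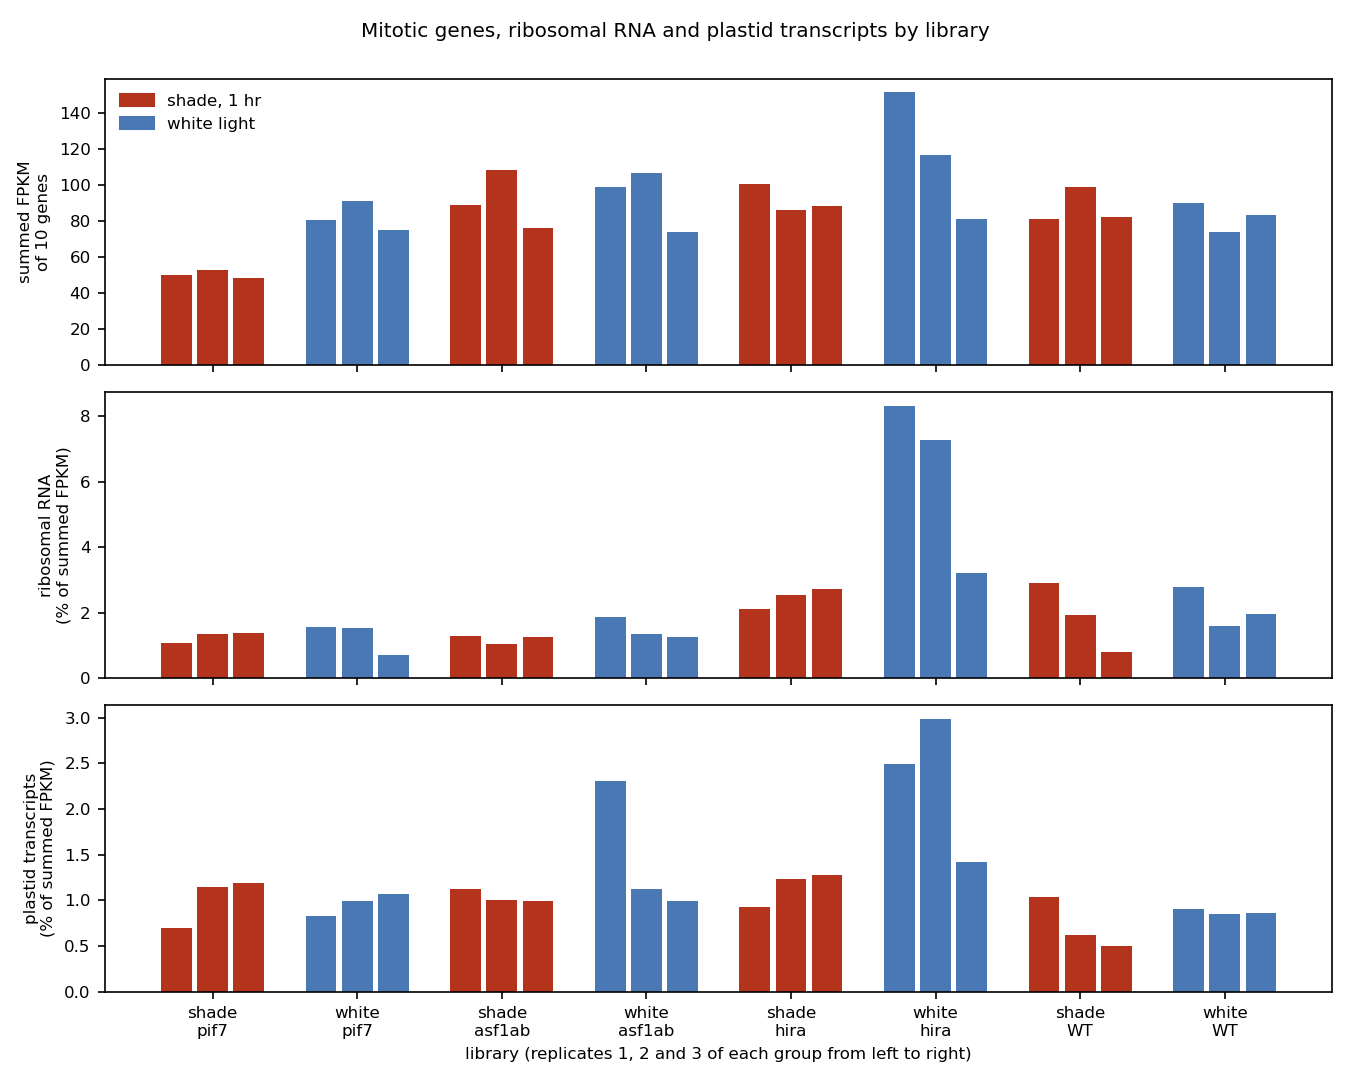
Summed FPKM of the 10 genes (top), ribosomal RNA (middle) and plastid transcripts (bottom), both as a percentage of the summed FPKM of all loci, in each of the 24 libraries, with replicates 1, 2 and 3 of a group from left to right. The shaded pif7 libraries sum to 48.2 to 52.8 FPKM, and replicates 1 and 2 of white-light hira stand highest in the upper and middle panels.

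Other genes of the division machinery were followed as fixed lists, in pif7 first. The counts stand against 13.6% of all genes lower and 29.9% higher in shaded pif7, and 11.4% lower and 14.9% higher in shaded WT. After rescaling these were 19.3% lower and 17.9% higher in pif7, and 12.7% lower and 13.7% higher in WT. Of 13 further mitotic cyclins and kinases tested, 6 fell in shaded pif7 and 0 rose, with a median of -0.38 against 0.12 over all genes. The 3 with the smallest p were CYCB2;4, a B-type cyclin at 1.96 ± 0.338 FPKM in shaded and 3.93 ± 0.427 FPKM in white-light pif7 (log2 change -0.74 ± 0.15, limma adjusted p = 0.000902), and the A-type cyclins CYCA3;1 (-0.55 ± 0.14, limma adjusted p = 0.00366) and CYCA1;1 (-0.73 ± 0.21, limma adjusted p = 0.00773). Of the closest relatives of the 10 genes, CYCB1;4 fell as well, at 2.02 ± 0.119 FPKM in shaded and 3.83 ± 1.16 FPKM in white-light pif7 (-0.65 ± 0.20, limma adjusted p = 0.0150). CDKB2;2 read 3.33 ± 0.265 FPKM in shaded and 4.56 ± 0.716 FPKM in white-light pif7, CDKB1;2 1.89 ± 0.709 and 2.73 ± 0.644 FPKM, and AUR3 1.72 ± 0.125 and 2.05 ± 0.591 FPKM, none of them called. In WT 1 of these 13 rose and 0 fell: CYCA2;3, at 7.58 ± 0.974 FPKM in shaded and 5.30 ± 0.316 FPKM in white-light WT (0.44 ± 0.12, limma adjusted p = 0.00966). CYCA2;3 fell in shaded pif7, and the difference between the responses, -0.84 ± 0.17, was past the threshold (limma adjusted p = 0.00665), as was that of CYCB2;4, -1.10 ± 0.22 (limma adjusted p = 0.00565).

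Of 7 spindle checkpoint genes and activators of the anaphase-promoting complex, 4 fell in shaded pif7 and 0 rose, with a median of -0.37. MAD2, which holds CDC20 until chromosomes are attached, read 5.55 ± 0.515 FPKM in shaded and 10.6 ± 1.70 FPKM in white-light pif7 (-0.82 ± 0.22, limma adjusted p = 0.00597), and its response differed from that of WT by -1.07 ± 0.31 (limma adjusted p = 0.0472). BUBR1, of the same checkpoint, changed by -0.57 ± 0.19 (limma adjusted p = 0.0211). In WT none of the 7 was called. Of 11 phragmoplast and cell plate genes, 5 fell and 3 rose in shaded pif7, and 5 fell and 2 rose after rescaling, so the share that rose was near that of all genes. KEULE, the Sec1 protein that binds KNOLLE, rose (0.48 ± 0.10, limma adjusted p = 0.00074), as did the dynamin DRP1A (0.29 ± 0.06, limma adjusted p = 0.000789). RUNKEL, a microtubule-binding kinase-like protein of the phragmoplast, fell (-0.55 ± 0.12, limma adjusted p = 0.00142). KEULE and DRP1A also rose in shaded WT, by 0.46 ± 0.10 (limma adjusted p = 0.00151) and 0.19 ± 0.06 (limma adjusted p = 0.0224), and with NPSN11, a SNARE partner of KNOLLE (0.46 ± 0.16, limma adjusted p = 0.0401), 3 of that list rose and 0 fell in WT. DRP1A was not called after rescaling, in pif7 (limma adjusted p = 0.075) or in WT (limma adjusted p = 0.0609). KNOLLE itself fell in pif7 and was not called in WT. In asf1ab and hira, shade gave 0 calls among the 13 further mitotic cyclins and kinases by limma. Of all genes, 12.3% were lower and 18.8% higher in asf1ab, and 9.55% lower and 26% higher in hira. At an unadjusted p under 0.05 there were 1 and 4, all lower, a level at which no share over all genes was taken. After rescaling 1 of the 13 fell in asf1ab, CDKB2;2 (limma adjusted p = 0.0425), where 15.3% of all genes fell. In hira 4 fell, CDKB2;2, CDKB1;2 and CYCB1;4 among them (limma adjusted p = 0.0178, 0.0334 and 0.0449), where 14.9% of all genes fell.

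Of 5 MYB3R and TSO1 regulators, 1 rose and 1 fell in shaded pif7, shares near those of all genes. MYB3R4, an activator of MSA-bearing genes, fell (-0.57 ± 0.14, limma adjusted p = 0.00278), and MYB3R5, a repressor of the same family, rose (0.48 ± 0.11, limma adjusted p = 0.00142). MYB3R5 also rose in shaded WT (0.34 ± 0.11, limma adjusted p = 0.0231), and no response of the 5 differed from that of WT past the threshold. Of 12 DNA replication genes, 7 fell in shaded pif7 and 0 rose, with a median of -0.42, and 11 fell after rescaling. The 3 with the smallest p were MCM3 (-0.54 ± 0.13, limma adjusted p = 0.00307), MCM6 (-0.54 ± 0.13, limma adjusted p = 0.00316) and the licensing factor CDC6 (-0.52 ± 0.13, limma adjusted p = 0.00324). In WT all 12 replication genes had a negative change, as had 48.7% of all genes, with a median of -0.31. TSO2, 1 of the 12, passed the filter at a mean of 1.21 FPKM, with a median of 0 reads and a highest library of 22.0 FPKM. In WT 1 of the 12 was called, the helicase subunit MCM7 (-0.39 ± 0.14, limma adjusted p = 0.0412), or 3 after rescaling. No response of the list differed between pif7 and WT past the threshold. Of 11 G1 cyclins, CDKA;1 and E2F-RBR genes, 2 fell and 1 rose in shaded pif7 and none was called in WT: CYCD4;1 fell (-0.59 ± 0.16, limma adjusted p = 0.00623), as did CYCD1;1 (-0.42 ± 0.15, limma adjusted p = 0.0323), and CDKA;1, the kinase used throughout the cycle, rose (0.52 ± 0.12, limma adjusted p = 0.00218).

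**Figure D5:**
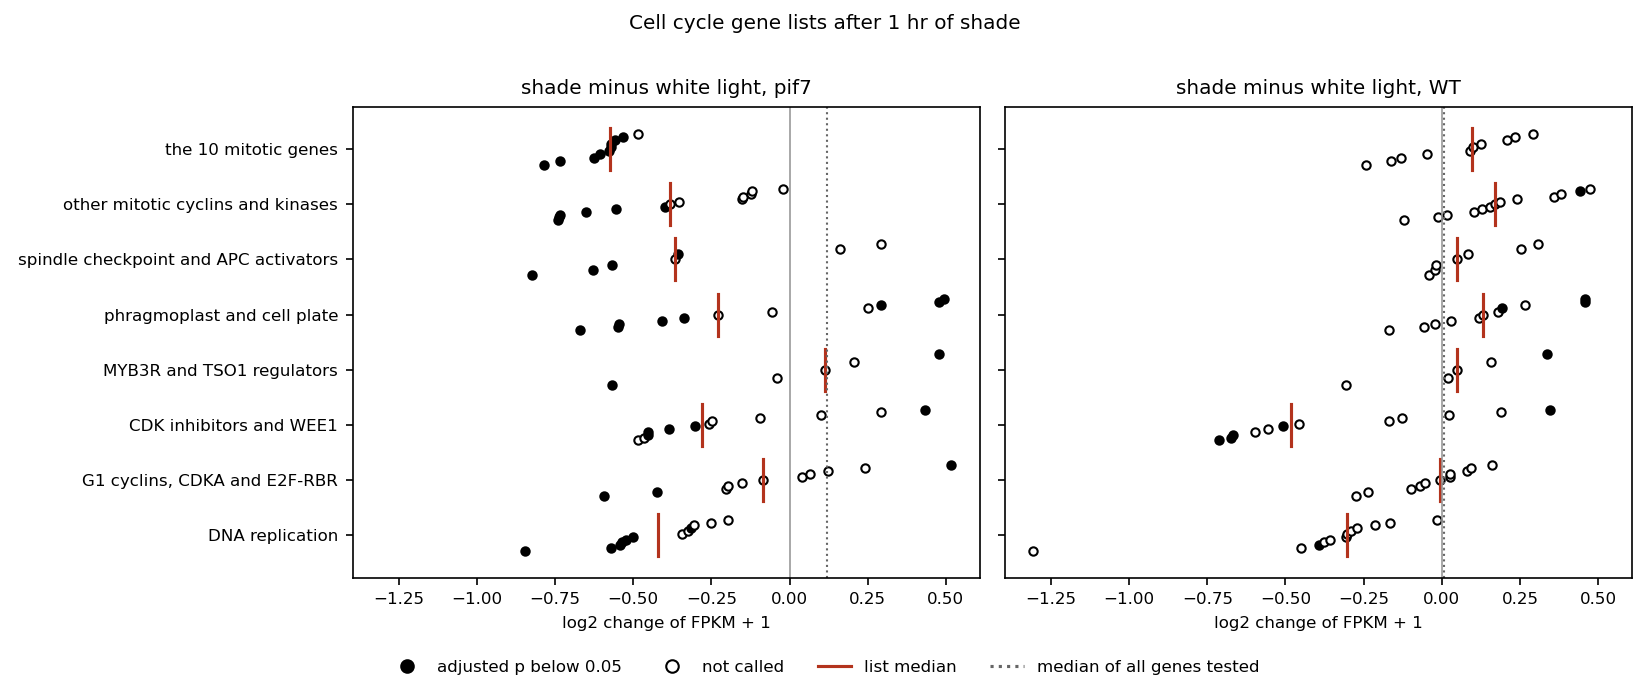
Log2 change of FPKM + 1 in shade minus white light (horizontal axis) of each gene of 8 cell cycle lists, in pif7 (left) and WT (right). Filled points have an adjusted p below 0.05, the red line is the median of a list and the dotted line the median of all genes tested. In pif7 the 10 mitotic genes have the lowest median of the 8 lists, -0.58, and in WT no point of theirs is filled.

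In shade 6.31% of all genes were lower in pif7 than in WT, or 8.21% after rescaling. Compared with WT in shade, pif7 had 6 of the 13 further cyclins and kinases lower, among them CYCB2;4 (-0.93 ± 0.15, limma adjusted p = 0.000553), CYCA2;3 (-0.63 ± 0.12, limma adjusted p = 0.00204) and CYCB1;4 (-0.87 ± 0.20, limma adjusted p = 0.00795). CDKB2;2 (-0.66 ± 0.16, limma adjusted p = 0.00971) and AUR3 (-0.51 ± 0.16, limma adjusted p = 0.0387) were lower too, and CDKB1;2 was not called (limma adjusted p = 0.142). MAD2 (-1.06 ± 0.22, limma adjusted p = 0.00381), CDC20.2 (-0.64 ± 0.18, limma adjusted p = 0.0225) and CCS52B (-0.57 ± 0.18, limma adjusted p = 0.0367) made up 3 of 7 checkpoint genes and activators, and the kinesins HINKEL (-0.82 ± 0.19, limma adjusted p = 0.00802) and POK1 (-0.39 ± 0.13, limma adjusted p = 0.0456) 2 of 11 phragmoplast genes, or 4 after rescaling. In white-light hira against WT, CYCB2;4 (0.53 ± 0.15, limma adjusted p = 0.0342) and the checkpoint gene BUB3.1 (0.42 ± 0.12, limma adjusted p = 0.0320) were higher, where 2.61% of all genes were. For CYCB2;4 all hira libraries lay above all WT libraries, unlike for KNOLLE, an ordering found in 5.53% of all genes. Both values include replicates 1 and 2 of white-light hira.

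The 10 genes varied together over the 24 libraries. The Pearson correlation of log2(FPKM + 1) of each gene with the mean of the 10 standardized profiles was highest for KNOLLE at 0.981, followed by CYCB1;2 at 0.945, CYCB2;2 at 0.936, CDKB2;1 at 0.921 and CYCB1;3 at 0.920. It was 0.894 for CDKB1;1, 0.873 for CDC20.1, 0.863 for AUR1 and 0.859 for CYCB1;1, and lowest for AUR2 at 0.726. Each gene is part of the mean it was set against, and the libraries share groups and scaling, so these values are a description. The 8 other genes most like that mean were the early nodulin-like genes ENODL14 (0.965) and ENODL13 (0.947), 3xHMG-box2 (0.955), the cellulose synthase-like gene CSLD5 (0.955), and AT4G26660 (0.954), AT3G51280 (0.951), AT5G62550 (0.951) and AT5G66230 (0.944), over 24 libraries. In shaded pif7 ENODL14 changed by -0.96 ± 0.23 (limma adjusted p = 0.00262) and CSLD5 by -0.84 ± 0.18 (limma adjusted p = 0.001), and none of the 8 was called in shaded WT or in the difference between the responses. Those 8 were chosen on the libraries in which these changes were measured.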

How the data were processed

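The deposited table gives the authors' FPKM for 33020 loci in 24 libraries. Per the submitters' processing notes, the tools were FastQC, cutadapt, STAR, HTSeq and DESeq2 and the build was TAIR10. Tool versions and the way FPKM was made were not given in the sources used here. FPKM is relative to the other RNA in a library, so a change in abundant RNA shifts every gene. Deposited FPKM values were transformed to log2(FPKM + 1), and 19126 genes whose mean reached 1 FPKM were fitted with limma 3.58.1 in R 4.3.3: 8 group means, eBayes with an intensity trend, 13 contrasts, Benjamini-Hochberg adjustment, calls at an adjusted p below 0.05. All 10 genes passed the filter. The fit was tested on simulated data with known changes and independent noise in each gene. That check does not cover shifts of many genes together in the same library. Tables used Python 3.11.15, numpy 2.4.6 and pandas 2.3.3, figures matplotlib 3.10.9. The 118 listed loci were all in the table. The 10 genes and the lists were chosen with earlier results of these data known. Genes named outside the 10 are the targeted genes, 5 close relatives, up to 3 called genes with the smallest adjusted p of each list and contrast, and the 8 most alike in profile. Promoter windows, names and unique 50-base stretches come from RefSeq's annotation of TAIR10.1. Depth was read from the steps between low FPKM values and is approximate.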

Additional observations from a re-analysis of the deposited data

Results flagged for a closer look

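The shade responses of pif7 and WT differed by the test of the difference itself for 3 of the 10 genes. The difference was -0.97 on the log2 scale for KNOLLE, which changed by -0.73 in pif7 and by 0.24 in WT. It was -0.82 for AUR1, which changed by -0.53 in pif7 and by 0.29 in WT, and -0.77 for CYCB2;2, which changed by -0.56 in pif7 and by 0.21 in WT. Over the alternatives tried, the limma adjusted p of the difference ran from 0.00888 to 0.0898 for KNOLLE, from 0.00357 to 0.0662 for AUR1 and from 0.0241 to 0.103 for CYCB2;2, and its sign was negative in each of them.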

How the results depend on the processing

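Without single libraries, the number of the 10 genes called ranged from 5 to 9 for shade in pif7 (9 with all libraries), 0 to 3 for the response of pif7 minus WT (3), 4 to 7 for pif7 minus WT in shade (6), 0 to 1 for shade in asf1ab (0), asf1ab minus WT in white light (0) and asf1ab minus WT in shade (0), 1 to 4 for shade in hira (1), 0 to 2 for the response of hira minus WT (0) and 0 to 6 for hira minus WT in white light (1). It was 0 to 0 for shade in WT, the response of asf1ab minus WT, pif7 minus WT in white light and hira minus WT in shade. Shares of all genes called without single libraries are not given here. With a mean FPKM of at least 5, 6 of the 10 genes remained to be tested and 5 were called for shade in pif7. With no filter the response of pif7 minus WT gave 1 call and hira minus WT in white light 0. Rescaling by the median of ratios gave 3 calls for shade in hira and 2 for hira minus WT in white light, and quantile normalization gave 2 for hira minus WT in white light and 1 for asf1ab minus WT in white light. For hira minus WT in white light, a fit of the compared groups alone gave 0 and a pseudocount of 5 gave 2. Without both replicates 1 and 2 of white-light hira, an alternative added after seeing the data, shade in hira and hira minus WT in white light gave 0. Whether the replicate numbers pair the libraries was not settled, and the main fit does not pair them. In their deviations from the group means, same-numbered libraries correlated between -0.009 and 0.186, and differently numbered ones between -0.229 and 0.204. In pif7 all same-numbered pairs, at 0.0816 or more, lay above the others, at 0.0235 or less. The same held in asf1ab, at 0.095 or more against 0.0369 or less, but not in WT or hira. With the replicate block, hira minus WT in white light gave 2 calls, pif7 minus WT in shade 8, and shade in pif7 9. Of the tests of single genes, 2012 kept their side of the threshold, 64 lost it and 32 passed it, and 106 changed sign, none of them called in either fit. The causes were not tested. Depth limits the lowest genes most, with 24 reads behind CYCB1;3 in its lowest library.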

Other observations

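Genes that restrain cyclin-dependent kinases were followed as a list of CDK inhibitors and WEE1. Of the 12, 4 fell and 1 rose in shaded WT, where 11.4% of all genes fell and 14.9% rose, with a median of -0.48 against 0.01 over all genes. The other 7 were not called. KRP1 read 11.7 ± 1.22 FPKM in shaded and 19.2 ± 1.89 FPKM in white-light WT (SD, n = 3 each), a log2 change of -0.67 ± 0.11 (limma adjusted p = 0.000114). SMR1 read 41.7 ± 2.87 FPKM in shaded and 67.4 ± 9.56 FPKM in white-light WT, a log2 change of -0.67 ± 0.11 (limma adjusted p = 0.000141), and KRP2 changed by -0.51 ± 0.11 (limma adjusted p = 0.00203). In shaded pif7 4 of the 12 fell and 1 rose, where 13.6% of all genes fell and 29.9% rose: SMR1 changed by -0.45 ± 0.11 (limma adjusted p = 0.00349), KRP1 by -0.39 ± 0.11 (limma adjusted p = 0.00835), and SIM rose by 0.43 ± 0.09 (limma adjusted p = 0.00115). In shaded asf1ab 5 fell and 1 rose, where 12.3% of all genes fell and 18.8% rose, with SMR1 at -0.73 ± 0.11 (limma adjusted p = 4.62e-05) and KRP1 at -0.55 ± 0.11 (limma adjusted p = 0.00061). In shaded hira 1 fell, KRP1 at -0.39 ± 0.11 (limma adjusted p = 0.00932), and 1 rose, KRP4 at 0.47 ± 0.12 (limma adjusted p = 0.00634), no more than the shares of all genes, 9.55% lower and 26% higher. KRP4, which was also the gene that rose in WT and in asf1ab, was not called after rescaling in any of the 3 (limma adjusted p = 0.0676 in hira, 0.0816 in asf1ab and 0.068 in WT). None of the 12 responses of a mutant differed from that of WT past the threshold. In shade KRP1 was higher in pif7 than in WT, by 0.46 ± 0.11 (limma adjusted p = 0.00929).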
